A study of Mus musculus with 6 samples.

Results

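The mitochondrial ribosomal protein genes were followed in mouse jejunal epithelium, that of the middle part of the small intestine, after 24 h of induced expression of a Musashi protein, an RNA-binding regulator of translation. Members were all genes whose symbol begins with Mrpl or Mrps and a digit, among array rows that the platform annotation gives to a single gene, and for a gene with several rows the row with the highest mean was used. This gave 77 genes of the 19938 named genes tested, 50 with a protein in the large subunit, 26 in the small subunit, and Mrps36, which despite its name belongs to a metabolic enzyme complex. The row shared by Mrpl53 and Ccdc142 was left out by this rule. The 3 control arrays came from R26-M2rtTA animals, which carry a doxycycline-dependent transcriptional activator at the Rosa26 locus, active in most tissues, and the 3 transgenic arrays came from animals with the activator and a Musashi transgene under its tetracycline response element. The series text names this transgene TRE-Msi1, and the genotype label of the samples names TRE-MSI2. All 6 animals drank doxycycline for 24 h, so effects of doxycycline and of the activator were common to both groups, and no animal without doxycycline was analysed here. The labels state no age, sex or strain for the animals.

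The mitochondrial ribosome translates the few proteins encoded by mitochondrial DNA, all of them subunits of the respiratory chain and ATP synthase. Its RNA is made in the mitochondrion, but every one of its proteins is encoded in the nucleus, translated in the cytosol and imported. Some of these proteins descend from the bacterial ribosome and others were added in mitochondria, and in the absorptive epithelium, which depends on oxidative metabolism, the genes are broadly expressed.

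The values are log2 signals of whole-transcript arrays, so a difference of 1 is a doubling, and signals of different genes cannot be read as relative amounts of RNA. Msi1 separated the groups, with 6.86 to 7.03 on the controls and 12.51 to 12.68 on the transgenic arrays, a difference of 5.66 (SE 0.0894, limma adjusted p = 1.34e-05). Msi2 differed by -0.42 (SE 0.16, adjusted p = 0.168). Over all genes, transgenic replicate 1 correlated with the remaining arrays at 0.922 to 0.951, whereas controls correlated with each other at 0.995 to 0.996. Of 11 epithelial markers all had a mean signal of at least 9.73 on the controls. The sum of their linear signals was 44797 to 47323 on the controls and 33207 on transgenic replicate 1. It was 43582 to 44783 on replicates 2 and 3. These markers did not move together. On transgenic replicate 1 Fabp1, Fabp2 and Vil1 were 9.29, 10.40 and 10.82, against control means of 12.10, 12.68 and 12.15. Cdh1 was higher by 0.34 (SE 0.0766, limma adjusted p = 0.0415). All 3 transgenic arrays lay below all controls for 5 of the 11 (45.5%, against 18.2% of all genes) and above for 1 (9.09%, against 16.0%). The sum over 8 markers of T cells and intraepithelial lymphocytes was 3643 to 4636 on the controls and 419 on transgenic replicate 1. It was 2716 to 2748 on replicates 2 and 3. Of the 8 markers, 7 were lower on all transgenic arrays than on all controls (87.5%, against 18.2% of all genes). None of the 8 had a limma adjusted p under 0.05. The sum over 5 macrophage markers was 918 to 1194 on the controls, 1177 on transgenic replicate 1 and 549 to 585 on replicates 2 and 3. Of these markers Lyz2 was 8.20 and 7.79 on replicates 2 and 3, below the lowest control at 9.38, while Itgam was above all controls on every transgenic array and none was below on all. For 7 fibroblast and smooth muscle markers the sum was 646 to 751 on the controls and 570 to 661 on the transgenic arrays. Markers of B cells, endothelium and red cells lay at low signals on all arrays, with sums of at most 166, 127 and 55.4. The part of these shifts in the results that follow was not tested, and fewer cells of a type cannot be told apart from less RNA per cell.

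The family did not move as a block, and its members split in both directions. Of the members called below, only Mrps6 kept its call whichever single array was left out. Of the 77 genes, 8 rose and 3 fell at a limma adjusted p under 0.05, which is 10.4% and 3.9% of the family, against 6.04% and 5.84% of all 19938 genes. The genes that rose were Mrps6, Mrpl9, Mrpl1, Mrpl50, Mrpl57, Mrps25, Mrpl17 and Mrpl40, and those that fell were Mrpl48, Mrpl14 and Mrps31. The median difference over the family was 0.17, with a middle spread from -0.11 to 0.47, beside a median of -0.04 over all genes. All 3 transgenic arrays lay above all controls for 27 members (35.1%, against 16.0% of all genes) and below all controls for 7 (9.09%, against 18.2%). For the other 43 members the groups overlapped. With each array shifted to the same median the split was 9 higher and 1 lower, and the shares of all genes were 6.59% and 4.65%.

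**Figure D1:**
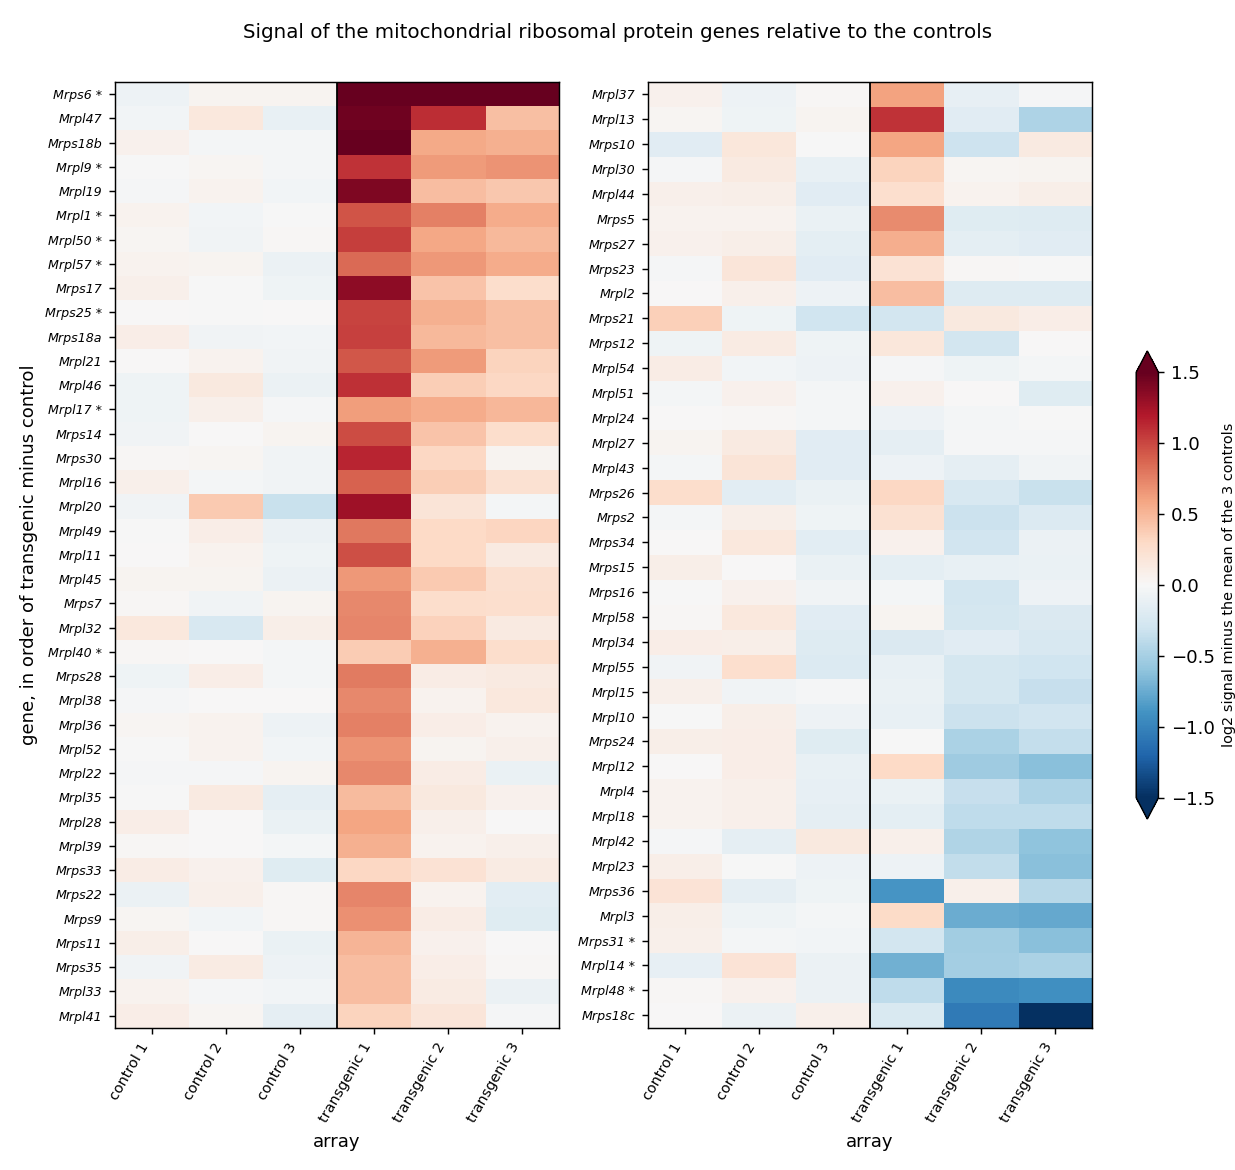
Log2 signal of each of the 77 genes on each of the 6 arrays, minus the mean of the 3 controls (colour scale, saturated beyond 1.5 in either direction); genes run from the largest positive difference at the top left to the most negative at the bottom right, and an asterisk marks a limma adjusted p under 0.05. Mrps6 is the only gene above the scale on all 3 transgenic arrays, and in most rows the column of transgenic replicate 1 is the reddest.

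Mrps6, a protein of the small subunit related to bacterial S6, had by far the largest change. Its signal was 8.24, 8.36 and 8.35 on the controls and 10.74, 10.51 and 10.59 on the transgenic arrays. The groups were far apart and each was tight, including transgenic replicate 1. The rise was 2.29 (SE 0.0936, limma adjusted p = 5.02e-04), or 4.90-fold, and it was 2.23 without transgenic replicate 1. Removing any single array left the limma adjusted p at 0.00874 or below. The next largest rise among members that passed was 0.80.

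The annotated start of Mrps6 lies 14 bases downstream of that of Slc5a3, the sodium-coupled transporter of myo-inositol, on the same strand. In RefSeq on GRCm38.p6 the spans of these genes overlap, so the Mrps6 promoter is shown because all but its last 14 bases also precede Slc5a3. Its 150 bases before the Mrps6 start are chr16:92058186-92058335 on the plus strand, and none of the motifs searched below, which would be in capitals, lies in it.
Mrps6: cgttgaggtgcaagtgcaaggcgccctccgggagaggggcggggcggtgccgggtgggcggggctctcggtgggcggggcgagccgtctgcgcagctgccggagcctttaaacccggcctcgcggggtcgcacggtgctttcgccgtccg
Slc5a3 had its own array row, with 6.69, 6.80 and 6.79 on the controls and 7.53, 7.96 and 7.79 on the transgenic arrays. It rose by 1.00 (SE 0.127, limma adjusted p = 0.0069), so that the neighbours rose together and by different amounts. Which exons the probes of either row cover was not analysed here, and signal from transcripts common to these genes cannot be told apart from signal of Mrps6 alone. RefSeq spans of other genes overlapped 24 of the 77 members. Among the other members that passed, the measured overlapping genes were Tmem63b, Rab6a, Ska3 and Nr2c2, and they differed by -0.21 to 0.52 without passing.

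Of the large subunit, 6 of 50 members rose and 2 fell, with a median of 0.19, beside the shares of all genes given above. Mrpl1 and Mrpl9 lie on the side of the subunit with the mobile L1 stalk, by which spent tRNA leaves. Mrpl9 had 8.30, 8.34 and 8.28 on the controls and 9.39, 8.94 and 8.98 on the transgenic arrays, a rise of 0.80 (SE 0.135, limma adjusted p = 0.0164). Mrpl1 had 8.081, 7.998 and 8.023 on the controls and 8.97, 8.79 and 8.59 on the transgenic arrays, a rise of 0.75 (SE 0.114, adjusted p = 0.0119). In both genes every transgenic array was above every control by a wide margin, with replicate 1 the highest. Mrpl50, a protein without a bacterial counterpart, rose by 0.70 from 9.05, 8.97 and 9.04 to 10.06, 9.60 and 9.51 (SE 0.156, adjusted p = 0.0381). As in Mrpl9, replicate 1 was high and the other transgenic arrays lay close together below it, whereas those of Mrpl1 were evenly spaced.

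Around the exit of the tunnel through which the new protein leaves towards the inner membrane, 1 of 8 members rose and the rest did not pass. Of all genes 6.04% rose. Mrpl17 had 7.67, 7.80 and 7.71 on the controls and 8.35, 8.29 and 8.23 on the transgenic arrays, a rise of 0.56 (SE 0.0815, limma adjusted p = 0.0103). Its transgenic arrays lay close together, replicate 1 included, and all were above the controls. Mrpl47 had the second largest difference of the family, 1.01, with 7.54, 7.74 and 7.47 on the controls and 9.05, 8.69 and 8.03 on the transgenic arrays, and missed the threshold (SE 0.257, adjusted p = 0.0585). A second row of Mrpl47, with a mean of 5.94 on the controls and 5.69 on the transgenic arrays, went the other way. Mrpl45, which helps to anchor the ribosome at the membrane, differed by 0.43, Mrpl23 by -0.36, Mrpl22 by 0.24, Mrpl39 by 0.22, Mrpl44 by 0.13 and Mrpl24 by -0.04, with adjusted p from 0.0843 to 0.809.

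The central protuberance, the crown of the large subunit that faces the small one, held members that rose and a member that fell. Of 9 members there Mrpl57 and Mrpl40 rose and Mrpl48 fell, where 6.04% and 5.84% of all genes did so. Mrpl57 had 8.86, 8.85 and 8.72 on the controls and 9.67, 9.46 and 9.37 on the transgenic arrays, a rise of 0.69 (SE 0.104, limma adjusted p = 0.0118). Mrpl40 rose by 0.39 (SE 0.0945, adjusted p = 0.0496), from 10.25, 10.23 and 10.21 to 10.61, 10.76 and 10.49, and was among the few members in which replicate 1 was not the highest transgenic array. Mrpl48 had 9.41, 9.45 and 9.30 on the controls and 9.01, 8.43 and 8.47 on the transgenic arrays, and fell by 0.75 (SE 0.17, adjusted p = 0.04). No transgenic array reached the lowest control, and replicate 1 was the closest to it. Mrpl46 differed by 0.59, Mrpl38 by 0.31, Mrpl18 by -0.31, Mrpl55 by -0.23, the peptidyl-tRNA hydrolase Mrpl58 by -0.14 and Mrpl27 by -0.06, none of which passed. A second row of Mrpl27 differed by 0.04.

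Proteins of the stalk that receives translation factors were also divided. Mrpl10, which forms the base of the stalk, differed by -0.24, and Mrpl12, the stalk protein itself, by -0.29, while Mrpl11, at the factor-binding centre, differed by 0.47 (adjusted p = 0.187, 0.578 and 0.263). Mrpl14, which lies at the face of the large subunit that meets the small one, fell by 0.57 (SE 0.126, limma adjusted p = 0.0387), from 8.49, 8.83 and 8.53 to 7.90, 8.12 and 8.15. It was the only member that fell with its lowest value on transgenic replicate 1. Mrpl3, whose bacterial counterpart reaches towards the peptidyl transferase centre, had 9.19, 9.05 and 9.08 on the controls and 9.39, 8.36 and 8.34 on the transgenic arrays. Replicate 1 was above the controls and replicates 2 and 3 were far below them, so that the difference of -0.41 did not pass with all arrays (SE 0.29, adjusted p = 0.475) and was -0.75 without replicate 1 (adjusted p = 3.48e-04).

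Of the small subunit, 2 of 26 members rose and 1 fell (7.69% and 3.85%, against 6.04% and 5.84% of all genes). The median was 0.12, and -0.04 without transgenic replicate 1. Besides Mrps6, Mrps25 rose by 0.67 (SE 0.158, limma adjusted p = 0.0455), from 8.09, 8.08 and 8.08 to 9.10, 8.62 and 8.54. Its controls were the tightest of any member named here, with an SD of 0.0045. Mrps31, a protein added in mitochondria, fell by 0.48 (SE 0.112, adjusted p = 0.0454), from 9.02, 8.91 and 8.90 to 8.66, 8.42 and 8.32. Mrps12, a conserved protein of the decoding centre, had 6.76 to 6.96 on the controls and 6.56 to 6.99 on the transgenic arrays, and Mrps21 had 10.14 to 10.80 and 10.17 to 10.58. The groups overlapped for both, with differences of -0.03 and -0.01.

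The S18 family, 3 proteins that descend from a common bacterial S18, lay on opposite sides. Mrps18a, which sits in the large subunit, had 8.69, 8.54 and 8.55 on the controls and 9.62, 9.08 and 9.04 on the transgenic arrays, a difference of 0.65 (SE 0.17, limma adjusted p = 0.0614). Mrps18b, added to the small subunit, differed by 0.89 (SE 0.287, adjusted p = 0.111), with 9.27, 9.18 and 9.18 against 10.79, 9.78 and 9.74. Mrps18c, which keeps the place of bacterial S18, differed by -0.98 (SE 0.346, adjusted p = 0.138), with 8.80, 8.70 and 8.86 against 8.56, 7.73 and 7.12. For each of these genes the groups did not overlap, with replicate 1 the farthest from the controls in Mrps18a and Mrps18b and the nearest in Mrps18c. Without transgenic replicate 1 the differences were 0.47, 0.55 and -1.36 (adjusted p = 0.00419, 0.00143 and 4.63e-04). Mrps30, a large subunit protein despite its name, differed by 0.50 (adjusted p = 0.345), and Mrps36, a subunit of the oxoglutarate dehydrogenase complex, by -0.41 (adjusted p = 0.397), with 7.51, 8.47 and 7.98 on the transgenic arrays.

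**Figure D2:**
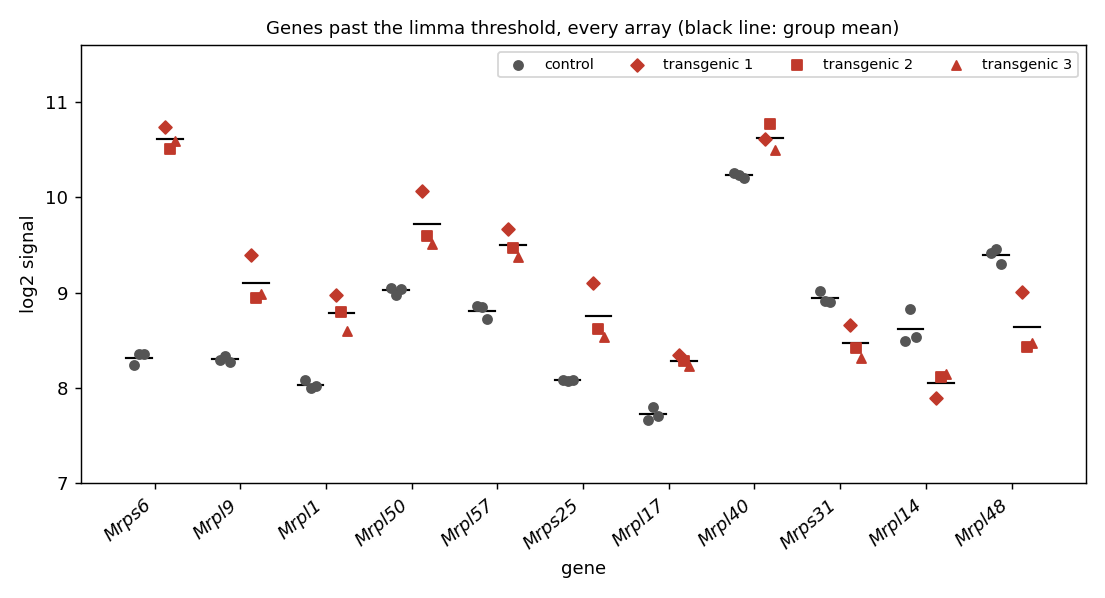
Log2 signal of the 11 members with a limma adjusted p under 0.05 on each array; grey circles are the 3 controls, red symbols the 3 transgenic replicates, and black lines the group means. The groups do not overlap in any of the 11, and Mrps6 is the widest gap, with 8.24 to 8.36 against 10.51 to 10.74.

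Grouped by whether the bacterial ribosome has a counterpart, 4 of 46 members with one rose and 1 fell (median 0.15). These are 8.7% and 2.17%, against 6.04% and 5.84% of all genes. Of 30 without one 4 rose (13.3%) and 2 fell (6.67%), with a median of 0.20. The latter include Mrps18a and Mrps18b, although these descend from bacterial S18, whereas Mrps18c was counted as having a counterpart. The difference between these groups was not tested. The members lay on 17 chromosomes, with at most 11 on 1 of them.

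The transgenic arrays differed among themselves. The median member lay 0.48 above the control mean on transgenic replicate 1, 0.06 above it on replicate 2 and at -0.01 on replicate 3, and the controls themselves spread from -0.07 to 0.05. Replicate 1 was the highest transgenic array for 68 of the 77 genes, and it differed from the mean of replicates 2 and 3 by a median of 0.47 in either direction, against 0.08 between replicates 2 and 3. Apart from the 27 members above the controls on all transgenic arrays, 19 were above them on replicate 1 but neither above nor below on both of replicates 2 and 3, such as Mrpl20 (difference of 0.48) and Mrpl32 (0.41). A further 7 were above the controls on replicate 1 and below them on replicates 2 and 3, namely Mrpl2, Mrpl3, Mrpl12, Mrpl13, Mrps2, Mrps5 and Mrps26. In Mrpl13 the controls had 7.62 to 7.74 and the transgenic arrays 8.78, 7.52 and 7.23. Another 7 were below the controls on replicates 2 and 3 and within their range on replicate 1, among them Mrpl4, Mrpl23, Mrpl42 and Mrps24. Taken singly, replicate 1 was above all controls for 53 members and below for 11, against 6371 and 9093 of the 19938 genes. Replicate 2 was above for 33 and below for 27 (5454 and 9987 of all genes), and replicate 3 for 28 and 29 (7956 and 5999). Neither the patterns across arrays nor the highest transgenic array were counted over all genes.

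**Figure D3:**
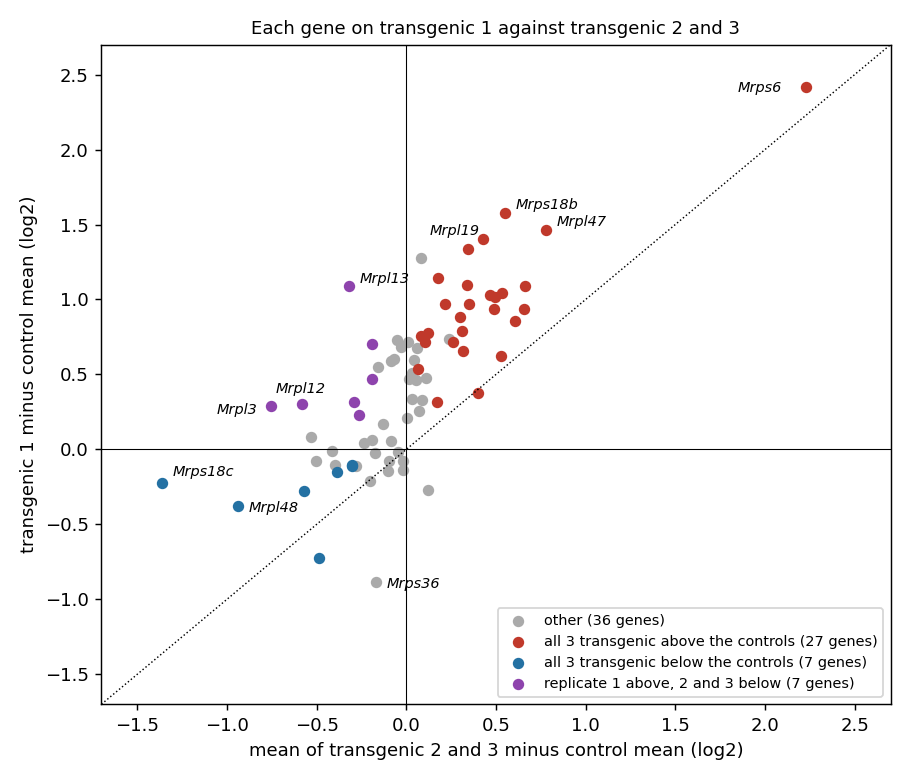
Each point is 1 of the 77 genes, with its mean log2 difference from the control mean on transgenic replicates 2 and 3 (horizontal axis) and on transgenic replicate 1 (vertical axis); the dotted line marks equal differences. Most points lie above the line, and the 7 purple points, such as Mrpl3 and Mrpl13, are above the controls on replicate 1 and below them on replicates 2 and 3.

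When transgenic replicate 1 was left out, the counts grew to 20 members higher and 13 lower, or 26.0% and 16.9%, against 14.0% and 14.5% of all genes, and the family median was 0.02. All 11 members called with every array were among them. The sign of the difference changed for 9 members, 8 of them from positive to negative, among them Mrpl13 (0.15 to -0.32), Mrps5 (0.11 to -0.19), Mrps22 (0.21 to -0.05) and Mrps9 (0.21 to -0.03), none of which passed either way. Joining the genes that passed as higher were Mrpl47 (0.78), Mrps18b, Mrpl21 (0.49), Mrps18a, Mrpl19 (0.43), Mrps14 (0.35), Mrps17 (0.34), Mrpl46 (0.34), Mrpl45 (0.31), Mrpl49 (0.31), Mrpl16 (0.30) and Mrps7 (0.26). Joining those lower were Mrps18c, Mrpl3, Mrpl12 (-0.58), Mrpl42 (-0.53), Mrpl23 (-0.50), Mrps24 (-0.41), Mrpl4 (-0.40), Mrpl18 (-0.38), Mrpl10 (-0.31) and Mrpl15 (-0.30). These additional genes were named after their values were seen.

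Leaving out other arrays mostly lowered the counts, and 10 of the 11 limma calls were lost in at least 1 such setting. Mrpl9, Mrpl1 and Mrpl57 lost the call without any 1 control (adjusted p up to 0.0837, 0.0667 and 0.0612), and Mrpl17 without control replicate 1 or 3 (up to 0.0691). Mrpl50 and Mrpl40 failed when any control, or transgenic replicate 2, was removed (0.15 and 0.173 at most). Mrps25, Mrpl48, Mrpl14 and Mrps31 kept it only without transgenic replicate 1 (up to 0.16, 0.156, 0.118 and 0.184 otherwise). No member of the 11 changed sign in any of them. Without control replicate 1 the limma counts were 1 member higher and 0 lower, against 1.8% and 1.63% of all genes. Without control replicate 2 they were 2 and 0 (1.84% and 1.82% of all genes), and without control replicate 3 they were 1 and 0 (2.09% and 2.32%). Without transgenic replicate 2 they were 5 and 0 (2.83% and 3.03%), and without transgenic replicate 3 they were 9 and 0 (4.77% and 4.05%). The members lower at an unadjusted limma p under 0.05 in these settings numbered 3 to 6.

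Other families of genes that build or use mitochondria and ribosomes were set beside these values. Cytosolic ribosomal proteins, which make up the ribosome of the cytoplasm, were also highest on transgenic replicate 1. Their median over 61 genes was 0.62 on transgenic replicate 1, 0.04 on replicate 2 and 0.01 on replicate 3. Their median difference was 0.20, beside 0.17 for the mitochondrial family, and 57 of the 61 differences were positive. All 3 transgenic arrays lay above all controls for 18 (29.5%, against 16.0% of all genes) and below for 0 (against 18.2%). Of these genes 1 rose (1.64%, against 6.04% of all genes), Rpl7l1, a relative of a ribosomal protein. Without transgenic replicate 1 their median was 0.03, and 3 rose and 1 fell, where 14.0% and 14.5% of all genes did so. The 82 nuclear-encoded subunits of oxidative phosphorylation, most of whose complexes contain products of the mitochondrial ribosome, lay the other way. Their median difference was -0.30, with -0.42, -0.24 and -0.22 on the 3 transgenic arrays. Of them 13 fell (15.9%, against 5.84% of all genes), and 52 lay below all controls on every transgenic array (63.4%, against 18.2%). Without transgenic replicate 1, 28 of them fell and 1 rose, the complex I subunit Ndufa2, with a median of -0.21. The shares of all genes that fell and rose in that setting were 14.5% and 14.0%. The medians of all 3 families kept their sign under quantile normalization and with equal array medians. The difference between the families was not tested, and Rpl7l1 and Ndufa2 were named after their values were seen.

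**Figure D4:**
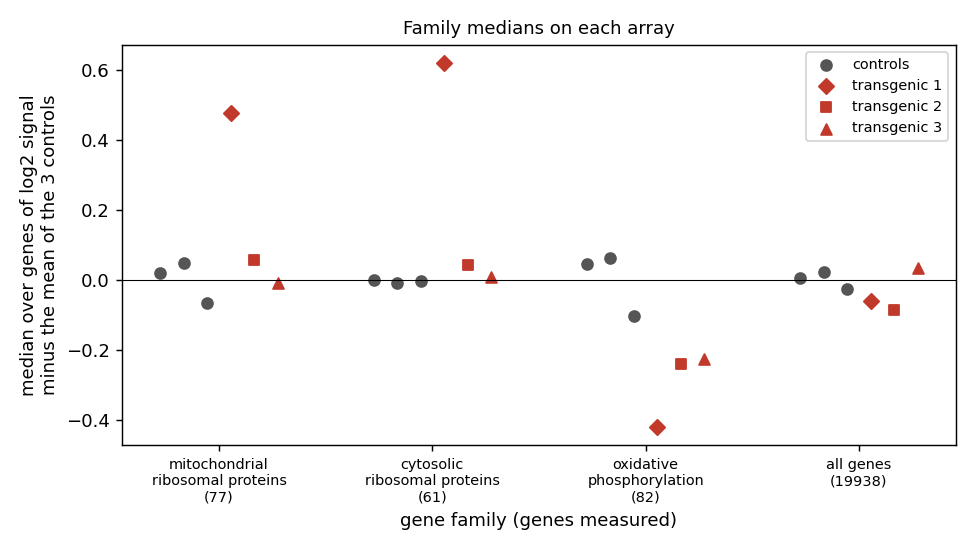
Median over the genes of each family of the log2 signal minus the mean of the 3 controls, for each array; grey circles are controls and red symbols the transgenic replicates, with the number of genes in brackets. On transgenic replicate 1 the medians are 0.48 for mitochondrial and 0.62 for cytosolic ribosomal proteins and -0.42 for oxidative phosphorylation subunits.

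The rest of the mitochondrial translation pathway changed in a few genes. Of 25 measured factors for assembly of the mitochondrial ribosome and modification of its RNA, 3 rose and 1 fell. Of all genes 6.04% rose and 5.84% fell. Ngrn, which takes part in the maturation of the large ribosomal RNA, had 8.36, 8.44 and 8.17 on the controls and 9.32, 9.15 and 9.07 on the transgenic arrays, a rise of 0.85 (SE 0.112, limma adjusted p = 0.00777). Mterf4, which guides an RNA methyltransferase to the large subunit, rose by 0.54 (SE 0.0849, adjusted p = 0.0134), and Malsu1, which keeps the subunits from joining too early, by 0.45 (SE 0.0797, adjusted p = 0.0192). Tfb1m, the methyltransferase of the small ribosomal RNA, fell by 0.65 (SE 0.0795, adjusted p = 0.00629), from 7.94, 7.97 and 7.93 to 7.34, 7.35 and 7.20. In Tfb1m and Malsu1 replicate 1 lay among or beside the other transgenic arrays. Ngrn and Tfb1m passed whichever single array was removed (adjusted p up to 0.0476 and 0.0471). Mterf4 failed when any 1 control was removed (up to 0.0793), and Malsu1 without these or transgenic replicate 2 (up to 0.0916). Without transgenic replicate 1, 6 of the 25 rose and 1 fell, where 14.0% and 14.5% of all genes did so.

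Of 15 translation factors 1 rose (6.67%, against 6.04% of all genes). It was Gfm2, which takes the ribosome apart after termination, with a rise of 0.50 (SE 0.0789, limma adjusted p = 0.0141, at most 0.0753 when a control or transgenic replicate 2 was removed). The elongation factor Tufm differed by -0.47 (adjusted p = 0.122) and the membrane insertase Oxa1l by -0.38 (adjusted p = 0.0533). Of 10 genes that copy or transcribe mitochondrial DNA 1 fell, where 5.84% of all genes did so. It was the mitochondrial RNA polymerase Polrmt, which fell by 0.45 (SE 0.0915, limma adjusted p = 0.0287, at most 0.137 under the same removals). Ssbp1, which binds single-stranded mitochondrial DNA, differed by 1.09 and Tfam, which packages it, by 0.11 (limma adjusted p = 0.0574 and 0.868). The 4 measured ribosome proteins with other names, Dap3, Ptcd3, Chchd1 and Gadd45gip1, differed by 0.10 to 0.51, and none passed or had an unadjusted limma p under 0.05. Of 13 regulators of nuclear genes for mitochondria none passed, with 3 at an unadjusted limma p under 0.05, beside 4982 of the 19938 genes. The 3 were Esrra (-1.10), Ppargc1b (-0.68) and Gabpa (0.29). Nrf1 differed by 0.13, Yy1 by 0.17, Ppargc1a by -0.67 and Myc by 1.16, the last with 11.24 on transgenic replicate 1 and 9.29 and 9.13 on the others. Genes of this paragraph that did not pass were outside the naming rule described below. Without transgenic replicate 1, 2 translation factors rose and 4 fell, and 2 of the regulators rose and 2 fell. The shares of all genes that rose and fell in this setting were 14.0% and 14.5%. How far the counts of these short lists lie from such shares was not tested.

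The promoters of the family were searched for 4 short motifs, because Nrf1, Gabpa and Yy1 are known regulators of nuclear genes for mitochondria. RefSeq promoter windows on GRCm38.p6, of 300 bases with 250 before the start, were matched by symbol to 68 of the 77 members and to 15614 of the tested genes. Exact matches on either strand were counted, and a gene with several windows counted when any held the motif. The NRF1 letters GCATGCGC were found for 8 members (11.8%, against 4.27% of the tested genes), the ETS letters CCGGAAG, which the Gabpa protein binds, for 25 (36.8%, against 13.6%), and the YY1 letters ATGGCGGC for 11 (16.2%, against 3.74%). The E-box CACGTG, a site of Myc, was found for 5 (7.35%, against 9.5%). The letters of these motifs do not contain one another. The median GC content was 58.0% in members and 57.5% in the tested genes. A match is a string of letters and not a measured binding site.

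The stretches of 150 bases before the start are printed for a pair of members that rose and share the NRF1 letters, and for Mrpl3, which fell when replicate 1 was left out. Capitals mark the motif. In Mrpl9 (chr3:94443186-94443335, plus strand) matches on the 2 strands overlap and begin at -28 and -26 from the start, in Mrpl17 (chr7:105811088-105811237, minus strand) the match begins at -11, and in Mrpl3 (chr9:105053118-105053267, plus strand) the ETS letters begin at -19.
Mrpl9: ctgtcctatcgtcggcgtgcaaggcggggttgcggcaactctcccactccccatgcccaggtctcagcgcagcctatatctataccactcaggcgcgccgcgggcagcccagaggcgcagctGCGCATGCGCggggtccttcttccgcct
Mrpl17: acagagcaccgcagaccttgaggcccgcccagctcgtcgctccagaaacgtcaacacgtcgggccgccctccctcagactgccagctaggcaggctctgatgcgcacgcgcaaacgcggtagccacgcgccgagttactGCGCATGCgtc
Mrpl3: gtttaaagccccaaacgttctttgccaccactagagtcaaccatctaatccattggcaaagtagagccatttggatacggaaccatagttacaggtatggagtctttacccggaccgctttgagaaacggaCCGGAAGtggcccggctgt
Among the 8 members that rose, 2 held the NRF1 letters, 2 the ETS letters and 2 the YY1 letters. Of the 3 that fell, 1, Mrpl48, held the ETS letters. The ETS letters were found in 5 of 19 members higher without transgenic replicate 1 (26.3%), 4 of 11 lower (36.4%) and 16 of the other 38 (42.1%), so members of every group held them.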

How the data were processed

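Total RNA, 250 ng per array, was measured on Affymetrix mouse gene arrays, per the labels' protocols. The deposited values are log2 signals, and the submitters' processing notes name RMA and Partek 6.5, without their settings. Because RMA equalises the distributions of arrays, a global shift in RNA content would be hidden, and low signals are compressed. Of 35399 rows, 21789 had 1 gene symbol, and the row with the highest mean stood for a gene.

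The transgenic group was compared with the control group by lmFit and eBayes of limma 3.58.1 (R 4.3.3). The model was fitted to all 19938 genes with Benjamini-Hochberg adjustment and tested on simulated data. In these data both groups had the spread of the controls. No array as divergent as transgenic replicate 1 was simulated, so the check does not cover that case. The words rose and fell mean an adjusted p under 0.05. Arrays, 3 per group, limit the precision, and the series text calls them animals. An exact permutation test of 3 against 3 cannot go below p = 0.1, so it was not used. Lists are described by counts and medians. The members, lists, tests and naming rule (members that passed, members with misleading names, extreme signals, disagreeing rows, list genes that passed) were chosen with earlier results of these data known, and groups by place in the ribosome and RefSeq overlaps after their values were seen. Results were recomputed with equal array medians, with quantile normalization, without the 40% of genes of lowest signal, and with a replicate block, trend and robust eBayes, array weights, the mean of rows, an adjusted p under 0.1, and leaving out each array.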

Additional observations from a re-analysis of the deposited data

How the results depend on the processing

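The median difference of the members kept its sign in every setting run, from 0.02 to 0.27 with an array left out. The counts moved more: with an array left out, 683 to 5700 genes passed in all, 1 to 20 members as higher and 0 to 13 as lower. The shares of all genes ran from 1.8% to 14.0% higher and 1.63% to 14.5% lower. Array weights gave 5770 genes in all, with 20 members higher and 13 lower, against 14.3% and 14.7% of all genes. Trend and robust eBayes gave 5 and 0 (4.84% and 5.07% of all genes), with 4 lower at an unadjusted limma p under 0.05. Equal array medians gave 1 lower (4.65% of all genes). The deviations of same-numbered arrays correlated at -0.07, -0.17 and -0.12. Because transgenic replicate 1 diverged from the other transgenic arrays, this check cannot decide whether the replicate numbers paired the samples. The replicate block gave 733 genes in all, with 1 member higher (Mrps6) and 0 lower (5 at an unadjusted limma p under 0.05). Of all genes 1.93% were higher and 1.75% lower with this block. Quantile normalization ended the calls of Mrpl50 and Mrpl14, equal array medians those of Mrpl40, Mrpl14 and Mrps31, and removal of dim genes that of Mrpl40. Calls were gained for Mrpl47 with quantile normalization (adjusted p = 0.04996) and without dim genes (0.04512), and for Mrps18a with equal array medians (0.04811). Of the 6 pathway genes that passed, trend and robust eBayes ended the calls of Malsu1 (0.05646) and Polrmt (0.07106), and the replicate block those of Tfb1m (0.0553), Mterf4 (0.08128), Gfm2 (0.09289), Malsu1 (0.1063) and Polrmt (0.1182).

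Among the genes chosen by the naming rule, differences near 0 that were not called changed sign: Mrps12 to 0.0132 with quantile normalization and 0.0302 with equal array medians, Mrps21 to 0.0499, Mrpl27 to 0.0045 and Mrpl51 to 0.0225 with the latter, and Mrpl51 to 0.12 with the mean of rows. With an array left out these ran from -0.13 to 0.0887, -0.16 to 0.17, -0.14 to 0.0104 and -0.0875 to 0.0324 for Mrps12, Mrps21, Mrpl27 and Mrpl51. The causes were not tested.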
